A study of Bos taurus with 92 samples.

Results

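The genes described here encode the filaments and motors of the cytoskeleton. They are actins, actin-related proteins and Arp2/3 subunits, alpha-actinins, myosins, tropomyosins, transgelins, calponins, cofilin and capping proteins, tubulins, kinesins and cytoplasmic dynein chains. Members were taken by symbol pattern from the annotation of a bovine cDNA array, from probes that carry a single gene symbol, and the ubiquitin ligase MYLIP, whose symbol resembles a myosin light chain, was left out. The pattern gave 70 probes of 56 genes, of 4452 named genes on the array. Of these, 55 members were measured in enough samples to be tested, of 4398 genes tested in all, and MYO1G was not. A further 3 probes with several symbols in the annotation, among them the one for TUBA1B and TUBA1A, were not used, and no probe with a single symbol stood for ACTB, ACTG1, MYH9, PFN1, TUBA1B or TUBB.

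The samples were single bovine blastocysts of 3 kinds and donor cells, the somatic cells used for nuclear transfer, from a study titled for nuclear reprogramming. The embryos were 15 from nuclear transfer (NT, an oocyte whose nucleus is replaced by that of a somatic cell), 15 fertilised in vitro (IVF) and 14 from artificial insemination (AI), and there were 2 donor cell samples. The labels give neither the breed or age of the animals nor the tissue, line or number of donor animals behind the donor cells. Of the NT embryos, 8 carry labels beginning with 2_ and 7 labels beginning with 3_, and 3 AI embryos carry labels beginning with H, with no further explanation. The labels do not say which embryos share parents, a nuclear donor or a culture, so p-values measure the spread between these samples alone. A pair of arrays, one with the sample in Cy5 and one with it in Cy3, set every sample against 1 reference RNA. A level is therefore the log2 ratio of a sample to this reference, relative to the median spot of the array, and levels of different genes cannot be set against each other. Values after ± are standard errors (SE) of the fitted difference unless SD is written.

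Actin filaments and microtubules shape the early embryo and carry its cargo. In mammalian blastocysts, studied mostly in the mouse, actomyosin contraction drives compaction and the enclosure of inner cells, and the outer trophectoderm is an epithelium held by junctions that anchor actin and keratin filaments. Class I and class V myosins link membranes to actin, myosin II contracts filaments, tropomyosins and calponins regulate that contraction, and capping protein, cofilin and the Arp2/3 complex control filament ends, turnover and branching. Kinesins and dynein walk on microtubules, which the gamma-tubulin ring complex nucleates, and several kinesins work on the mitotic spindle.

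Markers of fibroblasts and of trophectoderm were used to settle the direction of the ratios. The dye labels say which arrays of a pair to turn in sign but not whether the deposited ratios are Cy5 over Cy3. That direction is likely, because it puts most fibroblast markers high in donor cells and most trophectoderm markers high in embryos. Against donor cells 12 of 13 measured fibroblast markers were lower and 1 higher in each kind of embryo. Of 23 trophectoderm markers 17, 19 and 19 were higher and 6, 4 and 4 lower in NT, IVF and AI embryos. Under the opposite direction every rise below would be a fall. These markers are therefore no independent check of the sample labels. The mean level of 13 measured fibroblast markers ran from -2.73 to -2.09 in embryos, against 1.05 and 1.10 in donor cells. The mean of 23 trophectoderm markers had medians of 1.38 in NT, 1.68 in IVF and 1.61 in AI embryos, against -0.31 and -0.09 in donor cells. Of these 23 markers, NT embryos had 4 lower (17.4%) and 0 higher relative to AI (9 and 0 at an unadjusted p under 0.05). Of all genes 4.27% were lower and 3.8% higher. Relative to IVF embryos, 7 were lower and 2 higher (30.4% and 8.7%), where 10.3% and 13.9% of all genes were. On the ratios as deposited, before the arrays were centred, 2 were lower and 4 higher relative to AI (8.7% and 17.4%). Relative to IVF embryos, 3 were lower and 5 higher there (13.0% and 21.7%). Of all genes 0.432% were lower and 45% higher in the first case, and 1.02% and 38.9% in the second. IVF embryos had 5 of the 23 lower and 3 higher relative to AI (21.7% and 13.0%), where 15.6% and 13.9% of all genes were. Of the 13 fibroblast markers, NT embryos had 2 higher and 1 lower relative to AI (15.4% and 7.69%). Relative to IVF embryos, 4 were higher and 1 lower (30.8% and 7.69%). On the ratios as deposited 8 were higher relative to AI (61.5%) and 5 relative to IVF (38.5%), and 0 were lower in either. In an embryo of mixed cells, fewer trophectoderm cells and less of a transcript in each cell cannot be told apart, and the part of cell makeup in the differences below was not tested. The mean of the 5 measured markers of inner cell mass and primitive endoderm ran from -0.72 to 0.35 in embryos, against 0.91 and 1.21 in donor cells, so that these 5 did not follow the label, and 3 cumulus and granulosa markers ran from -0.69 to 0.50 in embryos, against 0.84 and 1.18 in donor cells. The labels name no hybridisation batch, and an effect of batch cannot be told apart from one of embryo origin.

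On the centred arrays, the share of cytoskeletal genes called between embryos was above that of all genes among falls in NT against AI. It was below that of all genes in the other comparisons and directions. The excess rested on 4 genes, of which MYO1D alone kept its call under all 8 other settings of scaling, dye, probe choice and samples. A gene was called when the adjusted p of limma's moderated test, corrected by Benjamini-Hochberg over all 4398 genes, was under 0.05. In the NT to AI comparison 0 members rose and 4 of 55 fell (7.27%), where 3.8% of all genes rose and 4.27% fell. At an unadjusted p under 0.05 limma gave 4 higher and 7 lower members there. In the NT to IVF comparison 4 rose and 4 fell (7.27% each), where 13.9% of all genes rose and 10.3% fell. Between IVF and AI embryos 6 rose and 6 fell in IVF (10.9% each), where 13.9% of all genes rose and 15.6% fell. The median difference of the members was 0.02 in NT against AI, 0.05 in NT against IVF and 0.03 in IVF against AI, beside medians over all genes of 0.03, -0.00048 and 0.03. The 3 comparisons share embryos and are not independent of each other.

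These counts depend on the centring of the arrays. With the ratios as deposited, where the median of all genes shifted by 0.44 in NT against AI and 0.38 in NT against IVF, 23 members rose and 1 fell in the first of these comparisons (41.8% and 1.82%), where 45% of all genes rose and 0.432% fell. In the second 25 rose (45.5%) and 0 fell, where 38.9% of all genes rose and 1.02% fell. Between IVF and AI embryos, with a shift of 0.06, 3 rose and 3 fell in IVF (5.45% each), where 7.82% of all genes rose and 8.05% fell. Rises and falls below are relative to the median spot of each array, and a call lost "without centring" is one not made on the ratios as deposited.

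**Figure D1:**
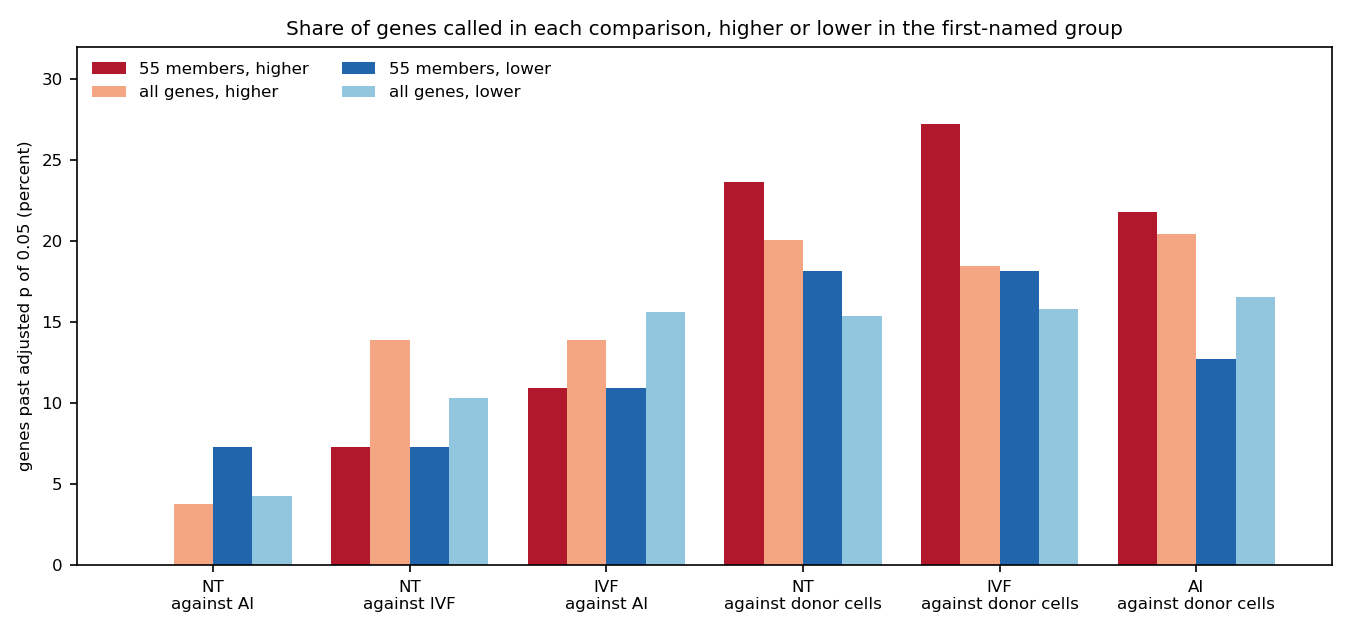
Share of genes past an adjusted p of 0.05 in each comparison, in percent, for the 55 cytoskeletal members (dark bars) and for all 4398 genes tested (light bars), higher (red) or lower (blue) in the first-named group. The members' shares lie on either side of those of all genes, from 0 in the rises of NT against AI to 27.3% in the rises of IVF against donor cells.

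MYO1D, a single-headed class I myosin that binds membranes and sets left-right asymmetry in Drosophila and in fish and frogs, had the largest difference of any member between kinds of embryo. Its level ran from -4.01 to 1.01 in NT embryos with a median of -0.58, from -2.74 to 0.80 in IVF embryos with a median of 0.06, and from -0.63 to 1.40 in AI embryos with a median of 0.84. Of the 15 NT embryos 7 lay below the lowest AI embryo, and of the 15 IVF embryos 6 did, while the highest embryos of the 3 kinds overlapped. MYO1D fell by 1.56 ± 0.38 on the log2 scale in NT against AI embryos (2.95-fold lower, adjusted p = 0.00588), and 13 of 15 NT embryos lay below the AI mean. It fell by 1.15 ± 0.38 in IVF against AI embryos (2.22-fold lower, adjusted p = 0.0176), and 14 of 15 IVF embryos lay below the AI mean. NT and IVF embryos differed by -0.41 ± 0.37 (adjusted p = 0.459, 95% interval -1.16 to 0.34), within the spread of the embryos.

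MYO1D varied among embryos of 1 kind. Its SD was 1.34 over 15 NT embryos and 1.16 over 15 IVF embryos, the highest of the 55 members in both, against 0.52 over 14 AI embryos. The median SD of the members was 0.37 in NT, 0.41 in IVF and 0.40 in AI embryos, and over all genes it was 0.41, 0.45 and 0.44. The lowest NT embryo, labelled 3_9, had a level of -4.01, and the next had -2.42 and -2.10. Leaving out each embryo in turn moved the difference of NT from AI between -1.69 and -1.33, with an adjusted p of 0.0114 at most, and that of IVF from AI between -1.26 and -0.98, with an adjusted p of 0.0375 at most. MYO1D also kept both calls without centring and on the arrays of either dye taken alone.

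MYO1D was also set out by the labels within kinds, whose difference was not tested. The 8 NT embryos labelled 2_ averaged -0.49 ± 1.24 and the 7 labelled 3_ averaged -1.13 ± 1.46, against 1.14 ± 0.32 in the 3 AI embryos labelled H (SD). With the 2_ embryos alone standing for NT the difference from AI was -1.27 ± 0.41 and missed the threshold (adjusted p = 0.0717), and with the 3_ embryos alone it was -1.90 ± 0.45 (adjusted p = 0.00905). Without the H embryos the difference of IVF from AI was -1.05 ± 0.41 (adjusted p = 0.0522), and that of NT from AI was -1.46 ± 0.41 (adjusted p = 0.0205). Each of these subsets holds fewer embryos than the full comparison, and each difference lies within its SE of the full one.

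**Figure D2:**
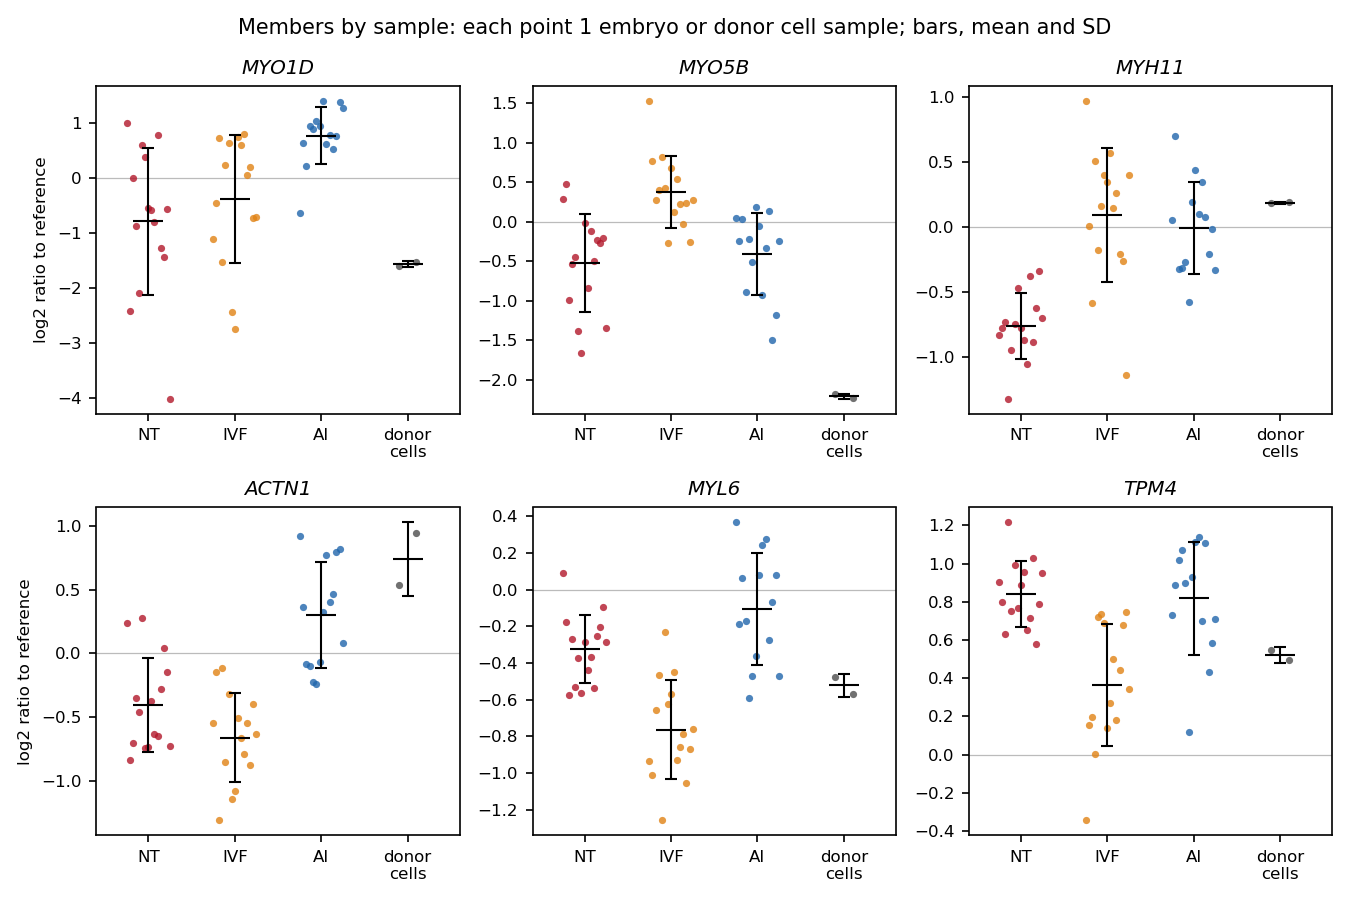
Level of MYO1D, MYO5B, MYH11, ACTN1, MYL6 and TPM4 as the log2 ratio to the reference (vertical axes, which differ between panels) in each NT, IVF and AI embryo and donor cell sample (points), with the mean and SD of each group (black bars). MYO1D reaches down to -4.01 in NT and -2.74 in IVF embryos but to -0.63 in AI embryos, and 11 of 15 IVF embryos lie above every AI embryo in MYO5B.

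MYO5B, the class V myosin that moves recycling endosomes to the apical membrane of epithelial cells, was highest in IVF embryos. It had a lowest level of -1.66, a median of -0.44 and a highest of 0.47 in NT embryos, of -0.27, 0.27 and 1.53 in IVF embryos, and of -1.49, -0.25 and 0.19 in AI embryos. It fell by 0.90 ± 0.19 in NT against IVF embryos (adjusted p = 0.000363, 14 of 15 NT embryos below the IVF mean) and rose by 0.79 ± 0.19 in IVF against AI embryos (adjusted p = 0.00151, 15 of 15 IVF embryos above the AI mean). Of the 15 IVF embryos 11 lay above the highest AI embryo. The fall in NT against IVF lost its call without centring, and the rise in IVF against AI kept it.

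The other 5 unconventional myosins tested, MYO1C, MYO1E, MYO6, MYO9A and MYO9B, did not pass in any comparison between embryos. MYO1E, another class I myosin, came nearest, with 0.49 ± 0.23 in IVF against AI embryos (adjusted p = 0.0938). MYO9A and MYO9B varied among embryos of 1 kind. The SD of MYO9B was 1.27 in NT embryos, and that of MYO9A, 0.97, was the highest of any member in AI embryos. For MYO6, the minus-end-directed actin motor, the 2 probes went opposite ways in IVF against AI embryos, by -0.85 ± 0.31 (adjusted p = 0.038 in the fit to probes) and by 0.52 ± 0.24 (adjusted p = 0.11), so that its mean describes neither.

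Genes of myosin II moved in different directions. MYH11, the heavy chain of smooth muscle myosin, ran from -1.32 to -0.34 in NT embryos with a median of -0.78, from -1.14 to 0.97 in IVF embryos with a median of 0.16, and from -0.58 to 0.70 in AI embryos with a median of 0.02. NT embryos were thus the low group, and 12 of 15 lay below the lowest AI embryo but 1 of 15 below the lowest IVF embryo. MYH11 fell by 0.75 ± 0.14 in NT against AI (adjusted p = 0.000455) and by 0.86 ± 0.14 in NT against IVF embryos (adjusted p = 1.15e-05), with 15 of 15 NT embryos below the other mean in each case. Both calls held with the 2_ and with the 3_ embryos alone, and both were lost without centring.

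MYL6, the essential light chain of smooth muscle and non-muscle myosin II, was lowest in IVF embryos. Its levels were -0.57, -0.29 and 0.09 in NT embryos (lowest, median and highest), -1.26, -0.79 and -0.23 in IVF embryos and -0.59, -0.12 and 0.37 in AI embryos. It fell by 0.66 ± 0.10 in IVF against AI embryos (adjusted p = 2.51e-06, 15 of 15 IVF embryos below the AI mean) and rose by 0.44 ± 0.10 in NT against IVF embryos (adjusted p = 0.000776, all 15 NT embryos higher than the mean of IVF). NT and AI embryos differed by -0.22 ± 0.10 (adjusted p = 0.177). The rise in NT against IVF was not called with Cy5-labelled samples alone.

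The regulatory light chains had smaller differences. MYL12A fell by 0.32 ± 0.10 in NT against IVF embryos (adjusted p = 0.0179), with levels of -0.11, 0.39 and 1.05 in NT and 0.35, 0.71 and 1.22 in IVF embryos. That call ended without centring and on the arrays of either dye taken alone, and with the 3_ embryos alone the difference was -0.15 ± 0.12 (adjusted p = 0.461). MYL9 rose by 0.31 ± 0.10 in IVF against AI embryos (adjusted p = 0.0126), with a median of 0.09 in IVF and -0.23 in AI embryos and overlapping ranges. Its call ended without centring and with Cy5-labelled samples alone.

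ACTN1, the alpha-actinin that crosslinks actin filaments and ties them to adhesions, was highest in AI embryos. Its levels were -0.83, -0.46 and 0.28 in NT embryos (lowest, median and highest), -1.31, -0.63 and -0.11 in IVF embryos and -0.24, 0.34 and 0.92 in AI embryos. Of 15 NT embryos 11, and of 15 IVF embryos 13, lay below the lowest AI embryo. ACTN1 fell by 0.71 ± 0.14 in NT against AI (1.63-fold lower, adjusted p = 0.00065) and by 0.96 ± 0.14 in IVF against AI embryos (1.95-fold lower, adjusted p = 9.11e-07), with 15 of 15 embryos below the AI mean in each. NT and IVF embryos differed by 0.26 ± 0.14, which did not pass. The fall in IVF against AI kept its call in all 8 alternatives of scaling, dye, probe choice and samples in the fit that were run for it. ACTN1 has 1 probe, so the choice of probe left its values unchanged. The fall in NT against AI was lost without centring. ACTN4, also found in non-muscle cells, and ACTN2, the alpha-actinin of striated muscle, did not pass.

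ACTG2, the gamma actin of smooth muscle, was the actin gene measured. Its levels were -2.18, -1.65 and -0.88 in NT embryos, -1.69, -1.13 and -0.83 in IVF embryos and -1.63, -1.45 and -0.96 in AI embryos (lowest, median and highest). It fell by 0.47 ± 0.10 in NT against IVF embryos (adjusted p = 0.00067) and rose by 0.29 ± 0.11 in IVF against AI embryos (adjusted p = 0.0353). The rise was weakly held. It was not called without AI embryo 1, 3, 6 or 17 or without IVF embryo 3 or 18, with an adjusted p up to 0.0584, nor without centring, with quantile normalisation, with scaling to a common deviation or with Cy5-labelled samples alone. The fall in NT against IVF was lost without centring. Actin cDNAs are alike, and whether other actins bound to this probe was not tested.

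Of the genes that coat or brace filaments, TPM4 and CNN2 were called. TPM4, a short non-muscle tropomyosin, ran from 0.58 to 1.22 in NT embryos with a median of 0.80, from -0.34 to 0.75 in IVF embryos with a median of 0.34, and from 0.12 to 1.14 in AI embryos with a median of 0.90. IVF embryos were the low group, and 11 of 15 NT embryos lay above the highest IVF embryo. TPM4 rose by 0.48 ± 0.10 in NT against IVF embryos (adjusted p = 0.000489, all 15 NT embryos higher than the mean of IVF), a call kept in all 8 alternatives run for it. TPM4 has 1 probe, so the alternative of 1 probe per gene left its values unchanged. It fell by 0.45 ± 0.11 in IVF against AI embryos (adjusted p = 0.000877), a call lost without centring.

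CNN2, a calponin of non-muscle cells, fell by 0.46 ± 0.11 in IVF against AI embryos (adjusted p = 0.00128), with levels of -1.86, -0.76 and -0.21 in IVF and -0.66, -0.25 and -0.06 in AI embryos, and the call was lost without centring. In NT against AI embryos it differed by -0.33 ± 0.11 and narrowly missed the threshold (adjusted p = 0.0568). TPM1, TPM2, TPM3, TAGLN and TAGLN2 were not called between embryos. The 3 probes of TPM3 did not move together. In IVF against AI embryos the first differed by -0.44 ± 0.13 (adjusted p = 0.0108 in the fit to probes) and the others by 0.06 ± 0.11 and 0.04 ± 0.36, and in NT against IVF embryos the second differed by -0.30 ± 0.11 (adjusted p = 0.0319) and the first by 0.28 ± 0.13 (adjusted p = 0.117). Tropomyosin genes resemble each other, and the part of cross-hybridisation was not tested.

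Of the 4 measured genes of cofilin and of the capping proteins, CAPZA2 was called between embryos. It was 25% of them in the rises of IVF against AI, where 13.9% of all genes rose. CAPZA2, an alpha subunit of the capping protein of barbed ends, rose by 0.56 ± 0.19 in IVF against AI embryos (adjusted p = 0.0201, 14 of 15 IVF embryos above the AI mean). Its levels were -1.09, -0.21 and 0.36 in IVF embryos and -2.50, -0.77 and -0.01 in AI embryos, and the call was lost with Cy3-labelled samples alone. CAPZB, its beta partner, had means of 0.68, 0.56 and 0.66 in NT, IVF and AI embryos and did not pass in any of the 3 comparisons, and neither did CAPZA1, the other alpha subunit.

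CFL1, the cofilin of non-muscle cells, averaged 0.48 ± 0.27 in NT, 0.52 ± 0.29 in IVF and 0.49 ± 0.17 in AI embryos (SD). The difference of NT from AI had a 95% interval of -0.21 to 0.19, against a median half-width of 0.30 among members that were not called. The 9 actin-related proteins and Arp2/3 subunits, ACTR1A, ACTR1B, ACTR3, ACTR8, ARPC1A, ARPC2, ARPC3, ARPC5 and ARPC5L, did not pass in any comparison between embryos. Their differences ran from -0.20 to 0.20 in NT against AI, from -0.35 to 0.28 in NT against IVF and from -0.27 to 0.19 in IVF against AI embryos. At an unadjusted p under 0.05 there were 0, 3 and 1 of the 9. Of all genes 3.8% rose and 4.27% fell past the adjusted threshold in NT against AI embryos. In NT against IVF embryos 13.9% rose and 10.3% fell, and in IVF against AI embryos 13.9% rose and 15.6% fell. ARPC5L came nearest, with -0.27 ± 0.11 in IVF against AI embryos (adjusted p = 0.0577) and 0.27 ± 0.11 in NT against IVF embryos (adjusted p = 0.0605).

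**Figure D3:**
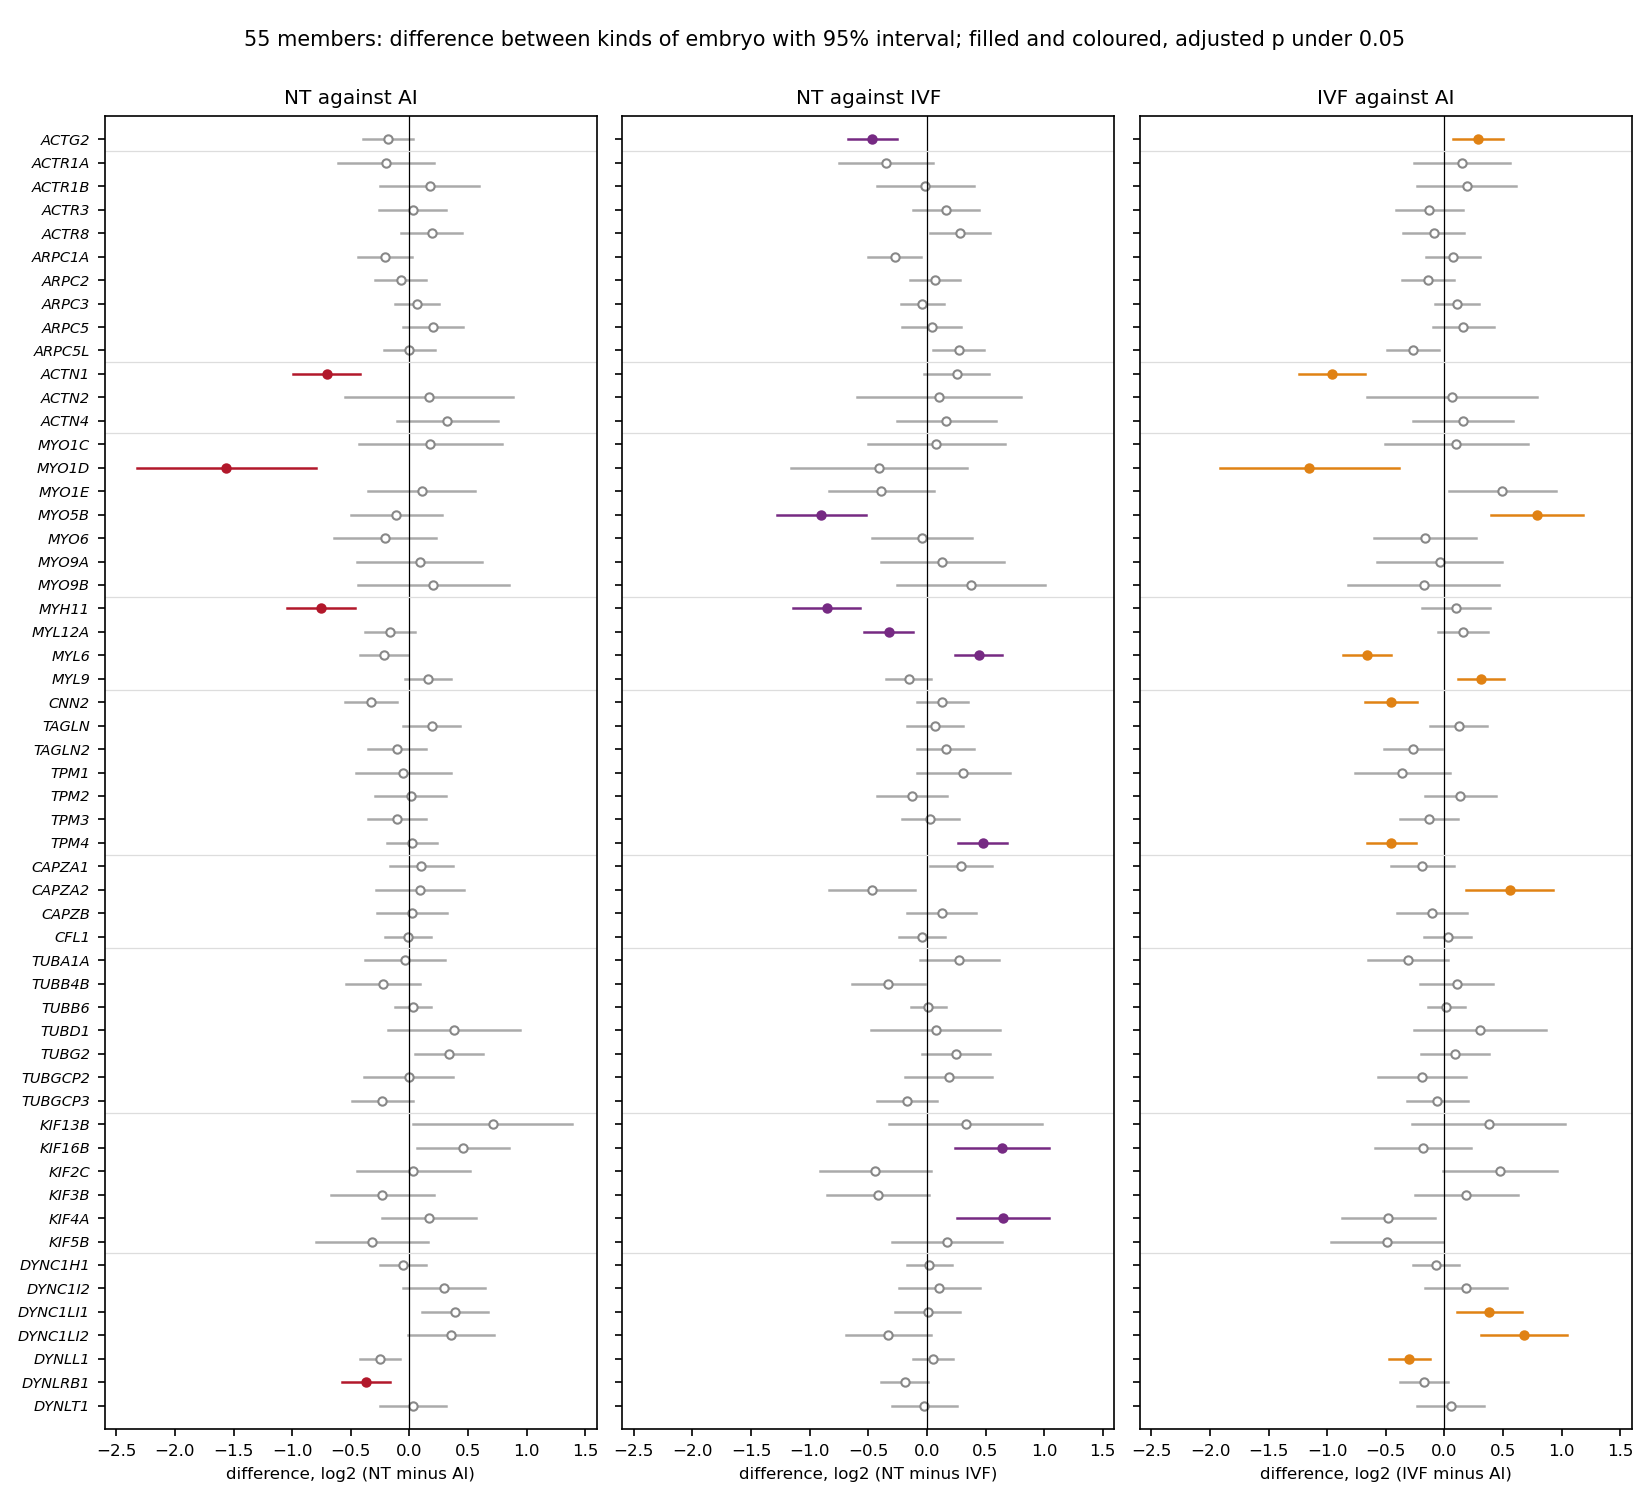
Difference of each of the 55 members between kinds of embryo on the log2 scale (horizontal axes), with its 95% interval, grouped by family from actins at the top to dynein chains at the bottom. Filled and coloured points passed an adjusted p of 0.05, which 4, 8 and 12 members did in NT against AI, NT against IVF and IVF against AI embryos, and MYO1D lies farthest from 0.

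Among the 6 kinesins, KIF4A and KIF16B rose in NT against IVF embryos (33.3%) and 0 fell, where 13.9% of all genes rose and 10.3% fell. In NT against AI embryos 0 of the 6 were called, where 3.8% of all genes rose and 4.27% fell. In IVF against AI embryos 0 were called as well, where 13.9% and 15.6% of all genes were. KIF4A, a chromosome-bound kinesin of the anaphase midzone, had levels of 0.18, 1.12 and 1.69 in NT embryos and -1.07, 0.29 and 1.26 in IVF embryos (lowest, median and highest). It rose by 0.65 ± 0.19 (adjusted p = 0.0113, with 12 of 15 NT embryos higher than the mean of IVF), and 5 of 15 NT embryos lay above the highest IVF embryo. The call was lost with Cy3-labelled samples alone. With the 2_ embryos alone the difference was 0.49 ± 0.23 (adjusted p = 0.154), and with the 3_ embryos alone it was 0.83 ± 0.24 (adjusted p = 0.0159).

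KIF16B, a kinesin of early endosomes, rose by 0.64 ± 0.20 in NT against IVF embryos (adjusted p = 0.0152), with levels of -0.50, 0.03 and 0.78 in 15 NT and -1.34, -0.56 and -0.05 in the 13 IVF embryos with a value. Of the NT embryos 9 lay above the highest IVF embryo. The call was lost with Cy5-labelled samples alone and with the 3_ embryos alone (0.51 ± 0.26, adjusted p = 0.187). KIF2C, KIF3B, KIF5B and KIF13B did not pass between embryos as genes. Of the 3 probes of KIF3B, 1 differed by -0.77 ± 0.20 in NT against IVF embryos (adjusted p = 0.00381 in the fit to probes), and the others by -0.31 ± 0.24 and -0.18 ± 0.24. KIF13B had the largest difference of the members not called in NT against AI embryos, 0.71 ± 0.34 (adjusted p = 0.186).

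Of the 7 dynein chains, 2 rose and 1 fell in IVF against AI embryos (28.6% and 14.3%), where 13.9% of all genes rose and 15.6% fell. In NT against AI embryos 0 rose and 1 fell (14.3%), where 3.8% of all genes rose and 4.27% fell. At an unadjusted p under 0.05 there were 1 higher and 2 lower there. In NT against IVF embryos 0 were called (0 also at an unadjusted p under 0.05), where 13.9% of all genes rose and 10.3% fell. DYNC1LI2, a light intermediate chain through which cytoplasmic dynein 1 grips its cargo adaptors, ran from 1.41 to 2.10 in IVF embryos with a median of 1.77 and from -0.38 to 2.39 in AI embryos with a median of 1.19. IVF embryos lay within the range of AI embryos, and their SD of 0.21 was below the 0.71 of AI embryos. DYNC1LI2 rose by 0.68 ± 0.18 (adjusted p = 0.00361, 15 of 15 IVF embryos above the AI mean) and kept its call in all 8 alternatives run for it. As DYNC1LI2 has 1 probe, the alternative of 1 probe per gene left its values unchanged. DYNC1LI1, its paralogue, rose by 0.38 ± 0.14 (adjusted p = 0.0319), with medians of 1.32 in IVF and 0.95 in AI embryos. In NT against AI embryos it differed by 0.39 ± 0.14 and missed the threshold (adjusted p = 0.0698, 13 of 15 NT embryos above the AI mean). The call in IVF against AI was lost without AI embryo 7, 16 or H3 or without IVF embryo 6 or 7, with an adjusted p up to 0.0688, without all 3 H embryos (0.35 ± 0.15, adjusted p = 0.0811), without centring and with Cy5-labelled samples alone.

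DYNLL1, the LC8 light chain that also dimerises many partners outside dynein, fell by 0.30 ± 0.09 in IVF against AI embryos (adjusted p = 0.00652). Its levels were -0.88, -0.56 and -0.21 in IVF and -0.62, -0.32 and 0.13 in AI embryos, and the call ended without centring and with Cy3-labelled samples alone. In NT against AI embryos it differed by -0.25 ± 0.09 and missed the threshold (adjusted p = 0.0609). DYNLRB1, the roadblock light chain, fell by 0.37 ± 0.10 in NT against AI embryos (adjusted p = 0.0176). It had levels of -1.80, -1.25 and -0.81 in NT and -1.11, -0.97 and -0.40 in AI embryos, and 12 of 15 NT embryos lay below the lowest AI embryo. Without centring the difference was 0.05, and with Cy3-labelled samples alone or the 2_ embryos alone (-0.30 ± 0.12, adjusted p = 0.136) it was not called. DYNC1H1, the heavy chain, DYNC1I2 and DYNLT1 did not pass between embryos.

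The 7 tubulins and gamma-tubulin complex genes, TUBA1A, TUBB4B, TUBB6, TUBD1, TUBG2, TUBGCP2 and TUBGCP3, did not pass in any comparison between embryos. Of all genes 3.8% rose and 4.27% fell in NT against AI embryos. In NT against IVF embryos 13.9% rose and 10.3% fell, and in IVF against AI embryos 13.9% rose and 15.6% fell. The differences of the 7 genes ran from -0.23 to 0.38 in NT against AI, from -0.33 to 0.28 in NT against IVF and from -0.31 to 0.31 in IVF against AI embryos. TUBG2, a gamma-tubulin, had 0.34 ± 0.14 in NT against AI embryos (adjusted p = 0.137), and in each comparison 0 or 1 of the 7 had an unadjusted p under 0.05. Of the 55 members 51 were not called in NT against AI embryos, and the median half-width of their 95% interval was 0.30.

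Embryos of each kind differed from donor cells in members of most families. In NT embryos 13 rose and 10 fell against donor cells (23.6% and 18.2%), where 20.1% of all genes rose and 15.4% fell. In IVF embryos 15 rose and 10 fell (27.3% and 18.2%), where 18.5% rose and 15.8% fell. In AI embryos 12 rose and 7 fell (21.8% and 12.7%), where 20.4% rose and 16.6% fell. The members' median difference was -0.02, -0.10 and 0.10 in NT, IVF and AI embryos, beside 0.04, 0.03 and 0.0022 over all genes. Without centring 13 rose and 4 fell in NT embryos (23.6% and 7.27%), where 18.9% of all genes rose and 8.5% fell. In IVF embryos 9 rose and 8 fell (16.4% and 14.5%), where 9.25% and 14.3% of all genes did, and in AI embryos 10 rose and 7 fell (18.2% and 12.7%), where 10.7% and 15.7% did. The 3 comparisons share the same 2 donor cell samples, and the fit assumes that these vary as the embryos do.

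**Figure D4:**
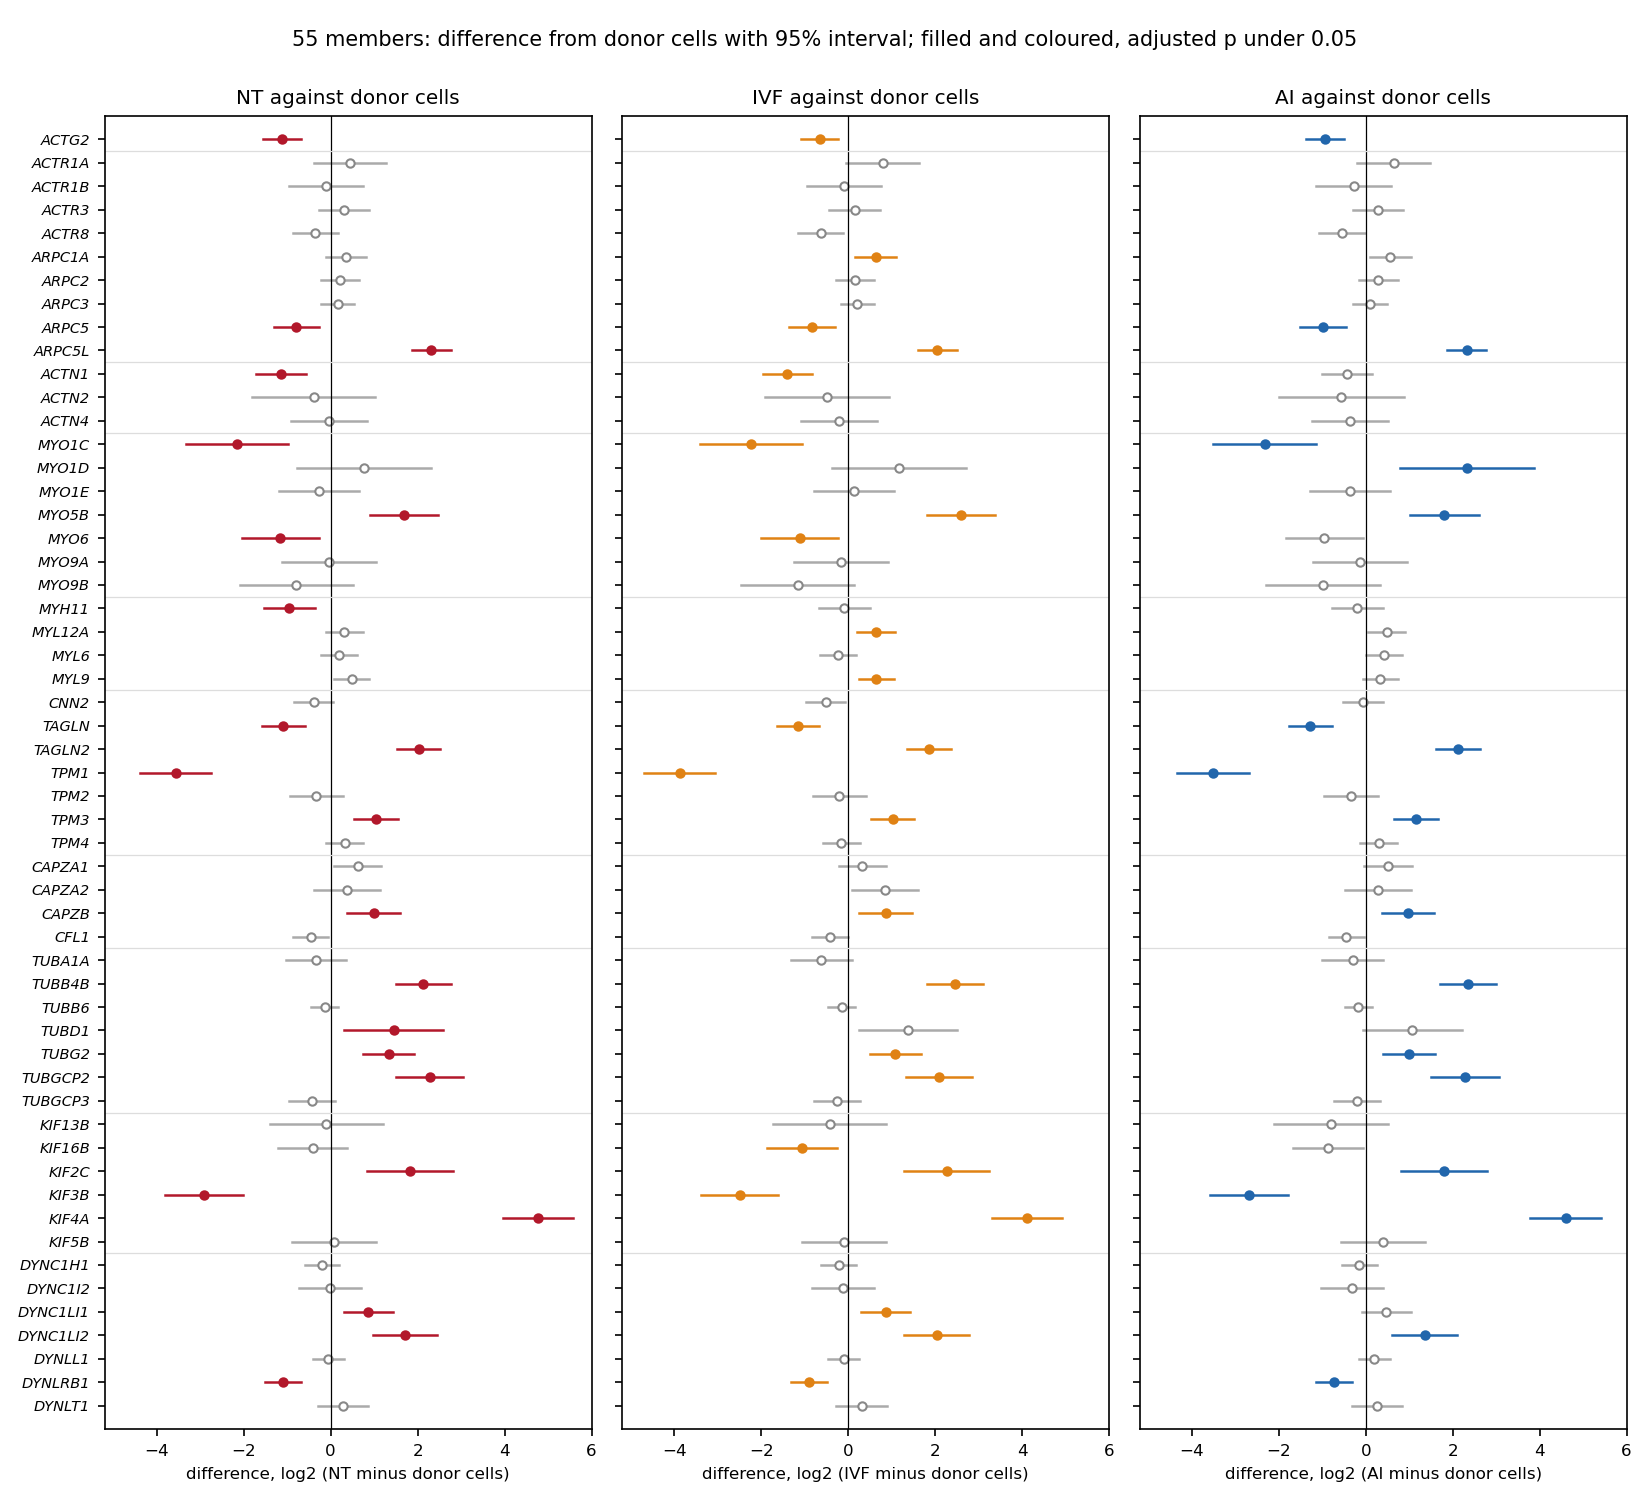
Difference of each of the 55 members between NT, IVF or AI embryos and donor cells on the log2 scale (horizontal axes), with its 95% interval, grouped by family. Filled and coloured points passed an adjusted p of 0.05, KIF4A lies farthest to the right and TPM1 farthest to the left in all 3 panels.

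Of the kinesins, KIF4A had the largest difference of any member. It ran from 0.18 to 1.69 in NT, from -1.07 to 1.26 in IVF and from -0.23 to 1.45 in AI embryos, against -3.82 and -3.65 in donor cells, with no overlap. It rose by 4.76 ± 0.40 in NT (27.2-fold, adjusted p = 8.55e-14), by 4.12 ± 0.40 in IVF (17.3-fold, adjusted p = 8.12e-12) and by 4.60 ± 0.40 in AI embryos (24.2-fold, adjusted p = 2.73e-13). KIF2C, the kinesin that takes microtubules apart at centromeres, rose as well, by 1.83 ± 0.49, 2.27 ± 0.49 and 1.79 ± 0.49 in NT, IVF and AI embryos, with levels of -1.28 and -1.14 in donor cells.

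KIF3B, a subunit of the kinesin-2 that carries cargo along cilia, was lower in embryos. It ran from -2.46 to -0.63 in NT, from -2.71 to -0.23 in IVF and from -2.06 to -0.57 in AI embryos, against 1.08 and 1.28 in donor cells. It fell by 2.91 ± 0.44 in NT (7.53-fold, adjusted p = 5.73e-07), by 2.50 ± 0.44 in IVF (5.64-fold, adjusted p = 1.11e-05) and by 2.68 ± 0.44 in AI embryos (6.41-fold, adjusted p = 2.93e-06). All 3 probes of KIF3B fell, with differences from -3.07 to -2.79 in NT embryos. KIF16B fell in IVF embryos, by 1.05 ± 0.40 (adjusted p = 0.0359), a call lost without centring and with Cy5-labelled samples alone, and KIF5B, the conventional kinesin heavy chain, was called in none.

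Pairs of related actin-binding genes lay on opposite sides of the donor cells. TPM1 ran from -3.27 to -1.11 in NT, from -3.34 to -1.40 in IVF and from -2.57 to -0.92 in AI embryos, against 1.58 in both donor cell samples. It fell by 3.56 ± 0.41 in NT (11.8-fold, adjusted p = 6.88e-10), by 3.87 ± 0.41 in IVF (14.7-fold, adjusted p = 7.34e-11) and by 3.51 ± 0.41 in AI embryos (11.4-fold, adjusted p = 1.1e-09). TPM3 rose by 1.05 ± 0.25, 1.02 ± 0.25 and 1.15 ± 0.25 in NT, IVF and AI embryos, with levels of -0.47 and -0.38 in donor cells, and 2 of its 3 probes carried the rise. TPM2 and TPM4 were not called.

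TAGLN, the transgelin of smooth muscle and mesenchyme, fell by 1.09 ± 0.24, 1.16 ± 0.24 and 1.28 ± 0.25 in NT, IVF and AI embryos, with levels of 0.43 and 0.57 in donor cells and -0.25 at most in any embryo. Both of its probes fell, and the gene's fall in NT embryos was lost without centring. TAGLN2, its relative in other tissues, rose by 2.02 ± 0.25, 1.86 ± 0.25 and 2.13 ± 0.25 in NT, IVF and AI embryos, from -0.30 to 1.10 in embryos against -1.43 and -1.35 in donor cells. ARPC5L rose by 2.32 ± 0.22, 2.05 ± 0.22 and 2.32 ± 0.22, with levels of -1.87 and -1.37 in donor cells and -0.13 at least in embryos. ARPC5, the alternative form of the same Arp2/3 subunit, fell by 0.79 ± 0.26, 0.83 ± 0.26 and 0.99 ± 0.26, but 1 of its 2 probes carried that fall (-1.64 ± 0.36 in NT embryos, against 0.07 ± 0.36 for the other). The falls of ARPC5 were lost with Cy3-labelled samples alone and with 1 probe per gene, and that in NT embryos without centring. ARPC1A, another Arp2/3 subunit, rose in IVF embryos by 0.63 ± 0.23 (adjusted p = 0.0287), which was lost without centring, with Cy5-labelled samples alone and with the compared groups alone in the fit. For ACTR1A, a subunit of dynactin, 1 of 2 probes rose in IVF embryos (1.82 ± 0.64, adjusted p = 0.0264 in the fit to probes), the other differed by -0.13 ± 0.27, and the gene was not called.

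**Figure D5:**
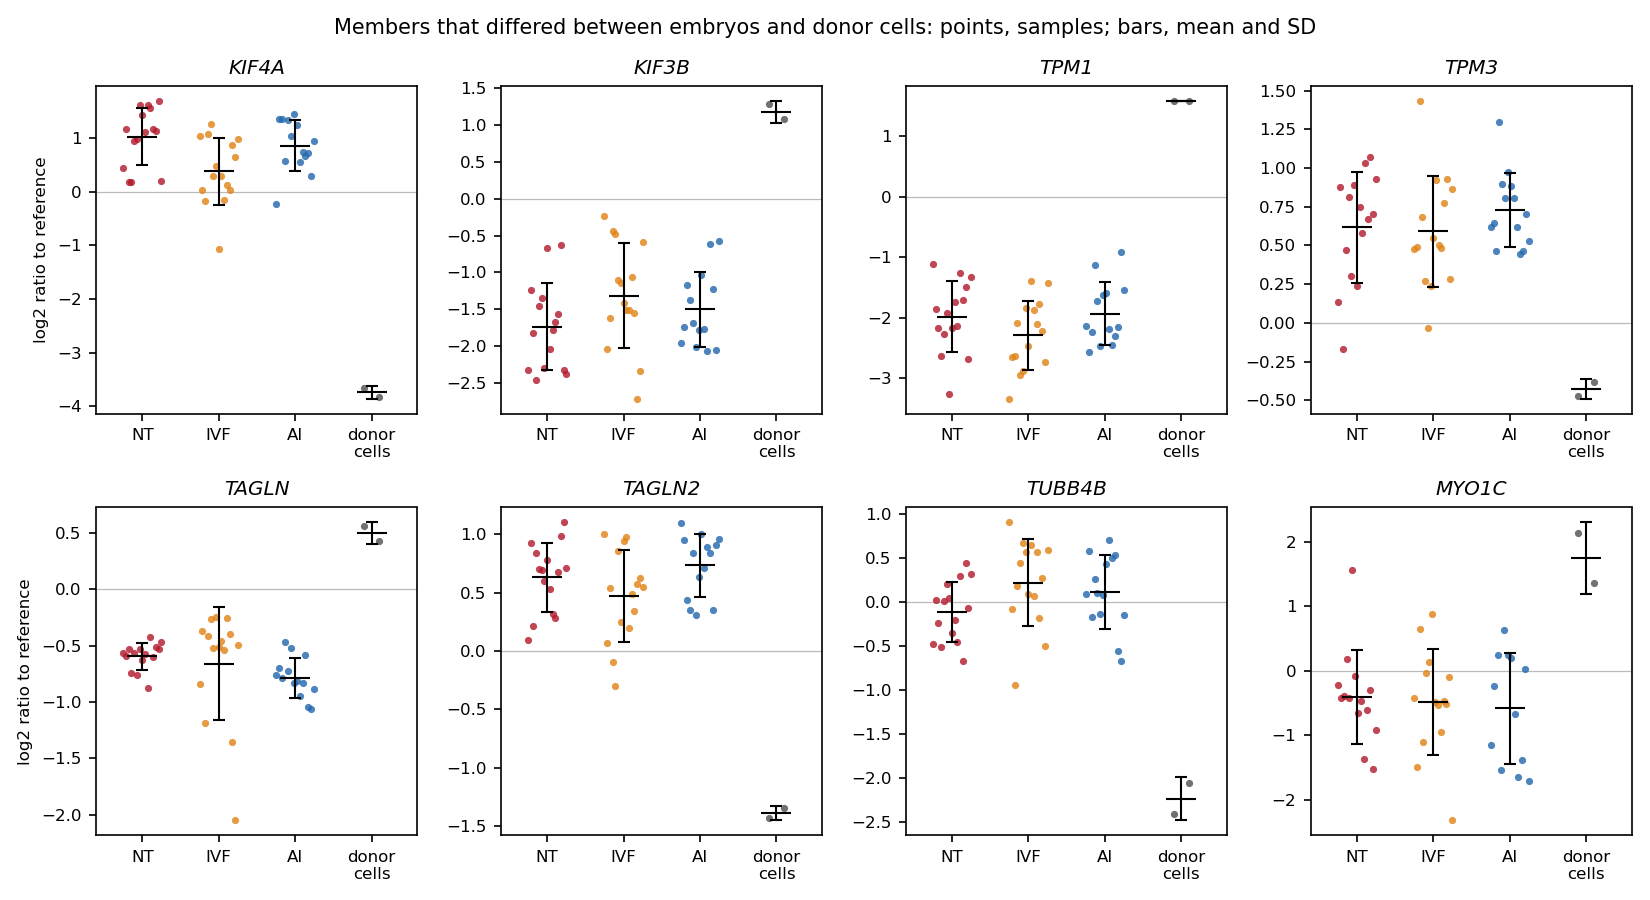
Level of KIF4A, KIF3B, TPM1, TPM3, TAGLN, TAGLN2, TUBB4B and MYO1C as the log2 ratio to the reference (vertical axes, which differ between panels) in each NT, IVF and AI embryo and donor cell sample (points), with the mean and SD of each group (black bars). The 2 donor cell samples lie outside the range of all embryos in every panel but that of MYO1C, where 1 NT embryo at 1.56 lies between them.

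Unconventional myosins also stood on both sides. MYO1C, a class I myosin of the plasma membrane, fell by 2.15 ± 0.58, 2.23 ± 0.58 and 2.33 ± 0.59 in NT, IVF and AI embryos, with levels of 1.36 and 2.14 in donor cells. Those falls were lost with Cy5-labelled samples alone. MYO5B rose by 1.69 ± 0.39, 2.59 ± 0.39 and 1.80 ± 0.39, with levels of -2.23 and -2.19 in donor cells below those of every embryo. MYO1D had levels of -1.60 and -1.52 in donor cells, and it rose by 2.33 ± 0.77 in AI embryos (5.03-fold, adjusted p = 0.0137), with no overlap. In NT embryos it differed by 0.77 ± 0.77 (adjusted p = 0.488) and in IVF embryos by 1.18 ± 0.77 (adjusted p = 0.248), where the lowest embryos lay below both donor cell samples. The rise in AI embryos was lost with Cy5-labelled samples alone.

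MYO6 fell by 1.16 ± 0.44 in NT and 1.12 ± 0.44 in IVF embryos, with its first probe alone carrying the fall (-2.15 ± 0.63 against -0.17 ± 0.49 for the second, in NT embryos, and -2.48 ± 0.63 against 0.24 ± 0.49 in IVF embryos). The falls of MYO6 were lost with Cy3-labelled samples alone and with the compared groups alone in the fit, and that in NT embryos without centring. ACTN1 fell by 1.14 ± 0.28 in NT (adjusted p = 0.00118) and 1.40 ± 0.28 in IVF embryos (adjusted p = 9.76e-05), with levels of 0.53 and 0.94 in donor cells. It was not called in AI embryos, whose highest, 0.92, lay between them. ACTG2 fell in all 3 kinds, by 1.12 ± 0.21, 0.66 ± 0.21 and 0.94 ± 0.22 in NT, IVF and AI embryos, and MYH11 fell in NT embryos by 0.95 ± 0.29 (adjusted p = 0.0082). Those of ACTG2 in NT and IVF embryos and that of MYH11 were lost without centring and with Cy3-labelled samples alone, and that of ACTN1 in NT embryos without centring. MYL9 and MYL12A rose in IVF embryos, by 0.64 ± 0.20 and 0.64 ± 0.21, and both calls were lost without centring and with Cy5-labelled samples alone.

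Of the 7 tubulin and gamma-tubulin complex genes, 4 rose in NT, 3 in IVF and 3 in AI embryos against donor cells (57.1%, 42.9% and 42.9%). Of all genes 20.1%, 18.5% and 20.4% rose. In each comparison 0 of the 7 fell (0 also at an unadjusted p under 0.05), where 15.4%, 15.8% and 16.6% of all genes did. TUBGCP2, a subunit of the gamma-tubulin ring complex, ran from 0.48 to 3.11 in embryos, against -0.18 and 0.05 in donor cells. It rose by 2.28 ± 0.38 in NT (adjusted p = 3.92e-06), 2.09 ± 0.38 in IVF (adjusted p = 1.84e-05) and 2.28 ± 0.38 in AI embryos (adjusted p = 3.78e-06). TUBG2 rose by 1.33 ± 0.29, 1.08 ± 0.29 and 0.99 ± 0.29, and TUBD1, the delta-tubulin of centrioles, by 1.45 ± 0.57 in NT embryos (adjusted p = 0.04). The rise of TUBD1 was lost with Cy3-labelled samples alone and with the compared groups alone in the fit, and that of TUBG2 was lost without centring in IVF and AI embryos and with Cy3-labelled samples alone in AI embryos. TUBB4B, a beta-tubulin, rose by 2.13 ± 0.32, 2.46 ± 0.32 and 2.36 ± 0.32, with levels of -2.41 and -2.07 in donor cells and -0.95 at least in embryos. TUBGCP3, TUBA1A and TUBB6 were not called. The 2 donor cell samples gave -2.53 and -0.17 for TUBA1A, a gap wider than the SD of 0.37 to 0.41 among embryos of 1 kind.

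Of the dynein chains, DYNC1LI2 rose by 1.71 ± 0.37, 2.04 ± 0.37 and 1.36 ± 0.37 in NT, IVF and AI embryos against donor cells (-0.31 and -0.17). DYNLRB1 fell by 1.10 ± 0.21, 0.91 ± 0.21 and 0.73 ± 0.21, with levels of -0.20 and -0.10 in donor cells above those of every embryo, and these calls were lost with Cy3-labelled samples alone. DYNC1LI1 rose in NT and IVF embryos by 0.86 ± 0.28 each, which was lost with Cy3-labelled samples alone and, in IVF embryos, without centring, and its donor cell samples lay apart at -0.18 and 1.09. DYNC1H1 was not called as a gene, but 1 of its 3 probes fell in all 3 kinds (-0.91 ± 0.25 in NT embryos, adjusted p = 0.00308 in the fit to probes) while the others differed by 0.30 ± 0.47 and 0.02 ± 0.33. CAPZB rose by 0.99 ± 0.30, 0.86 ± 0.30 and 0.97 ± 0.30 in NT, IVF and AI embryos, calls lost with Cy5-labelled samples alone and, in IVF and AI embryos, without centring. Of genes described in every comparison, MYL6, CFL1 and DYNLL1 were not called against donor cells, and CFL1 came nearest at -0.46 ± 0.20 in NT embryos (adjusted p = 0.0718).

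Genes that act on these filaments without being members were counted from lists chosen with earlier results of these data known. Of 30 measured actin regulators, 1 rose and 1 fell in NT against AI (3.33% each, where 3.8% and 4.27% of all genes did). In NT against IVF embryos 8 rose and 4 fell (26.7% and 13.3%, where 13.9% and 10.3% of all genes did), and in IVF against AI embryos 5 rose and 7 fell (16.7% and 23.3%, where 13.9% and 15.6% did). Without centring 17 (56.7%), 18 (60.0%) and 4 (13.3%) rose in these comparisons, where 45%, 38.9% and 7.82% of all genes did. Falls there numbered 0, 0 and 3 (10.0%), where 0.432%, 1.02% and 8.05% of all genes fell. The thymosins TMSB10 and TMSB4X, which hold actin monomers, were lowest in IVF embryos. TMSB10 fell by 0.96 ± 0.11 in IVF against AI (adjusted p = 1.35e-08) and rose by 0.55 ± 0.11 in NT against IVF embryos (adjusted p = 0.000248), and TMSB4X fell by 0.74 ± 0.14 in the first of these and rose by 0.59 ± 0.14 in the second. PDLIM1, a partner of alpha-actinin, and CAP1, a partner of cofilin, were highest in IVF embryos, by 0.66 ± 0.11 and 0.68 ± 0.12 over AI embryos. MARCKSL1 rose by 0.95 ± 0.17 and WASL, an activator of the Arp2/3 complex, fell by 0.77 ± 0.16 in NT against IVF embryos, and SH3BGRL3 rose by 0.62 ± 0.13 in NT against AI embryos. The falls of PDLIM1, CAP1 and WASL in NT against IVF, and that of TMSB10 in NT against AI (-0.42 ± 0.11), were lost without centring. The rise of SH3BGRL3 and the fall of TMSB10 in NT against AI were lost with Cy3-labelled samples alone.

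Of 29 microtubule regulators, 1 rose and 1 fell in NT against AI (3.45% each, where 3.8% and 4.27% of all genes did). In NT against IVF embryos 4 rose (13.8%) and 0 fell, where 13.9% and 10.3% of all genes did. In IVF against AI embryos 2 rose and 6 fell (6.9% and 20.7%, where 13.9% and 15.6% did). Without centring 12 (41.4%), 12 (41.4%) and 0 rose, where 45%, 38.9% and 7.82% of all genes did. Falls there numbered 0, 0 and 5 (17.2%), where 0.432%, 1.02% and 8.05% of all genes fell. At an unadjusted p under 0.05, 2 of the 29 were lower in the second comparison. NUDC, a dynein-associated chaperone, fell by 1.25 ± 0.20 in IVF against AI (adjusted p = 3.31e-06) and rose by 1.05 ± 0.19 in NT against IVF embryos (adjusted p = 5.25e-05). NDEL1, a regulator of dynein, rose by 0.47 ± 0.11, and STMN1, which sequesters tubulin, by 0.78 ± 0.22 in NT against IVF embryos. STMN1 fell by 1.12 ± 0.22 in IVF against AI embryos. Of the 4 rises in NT against IVF embryos, those of NUDC, NDEL1 and STMN1 held without centring and on either dye alone, and that of the tubulin cofactor TBCA (0.43 ± 0.14) was lost with Cy5-labelled samples alone. The cofactor TBCB fell by 0.49 ± 0.15 in NT and by 0.61 ± 0.15 in IVF embryos against AI, and TACC1 fell by 0.59 ± 0.15 in IVF against AI. NUMA1, the spindle pole protein, rose by 0.62 ± 0.19 in NT against AI, and that call and the one of TBCB in NT were lost with Cy3-labelled samples alone and with scaling to a common deviation. The call of NUMA1 was also lost with quantile normalisation, and that of TBCB in NT without centring. Of 6 intermediate filament genes, KRT19 fell by 0.60 ± 0.15 and DES rose by 0.42 ± 0.12 in NT against IVF embryos (16.7% each). Of all genes 10.3% fell and 13.9% rose there. In NT against AI embryos 0 were called, with 3 lower at an unadjusted p under 0.05, where 4.27% of all genes fell and 3.8% rose. In IVF against AI embryos 1 fell (16.7%) and 0 rose, where 15.6% and 13.9% of all genes did. Without centring 3 rose in NT against AI (50.0%) and 1 in NT against IVF embryos (16.7%), where 45% and 38.9% of all genes did. The fall of KRT19 in NT against IVF was lost without centring, and it and the rise of DES were lost with Cy5-labelled samples alone. The fall of DES in IVF against AI was lost in both of these settings.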

How the data were processed

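The arrays measured RNA from 46 samples, each hybridised in 2 dye orientations against reference RNA, 92 arrays in all. Per the labels' protocols, sample RNA went through 3 rounds of linear amplification and reference RNA through 2 before coupling to Cy5 or Cy3. The deposited values are log2 dye ratios made by the authors, whose background correction and normalisation are not given in the sources used here, and no intensities were used, so the signal behind each ratio is unknown. The direction Cy5 over Cy3 is not stated and was inferred from the dye labels together with the markers of donor cells and embryos. Ratios of the 2 orientations correlated between -0.743 and -0.301 as deposited, and the Cy3 arrays were turned in sign. A fill value of 16.61 was set to missing (2657 cells), and each array was centred on its median, which ran from -2.14 to 0.862.

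Duplicate spots (median r = 0.793), then both orientations, then the probes of a gene were averaged. A probe needed values in 50% of each kind of embryo and in both donor cell samples. Of 8208 probes, 5598 had 1 gene symbol in the platform annotation, 95 several and 2515 none. R 4.3.3 and limma 3.58.1 fitted one model of group means over all samples, using moderated 2-sided tests and Benjamini-Hochberg adjustment over 4398 genes. No genome build is named, so no coordinates are given, and no sequences were at hand.

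The members and lists were chosen with earlier results of these data known. Genes named by rule were the members past the threshold, up to 12 per embryo comparison and 8 per donor comparison by size, with MYO1D, MYL6, CFL1, DYNLL1 and CAPZB in each, and up to 4 per pathway list by p. The remaining members called against donor cells are given as well. The result of 1 pathway list is not reported here. A few others were named after their values were seen, as nearest to the threshold or most variable. Probes of 1 gene are given where their signs oppose and 1 passes. Those of KIF3B, TAGLN, TPM3 and MYO6 are also given in comparisons where their signs were alike. The alternatives changed centring, scaling, dye, probe summary, filters and samples.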

Additional observations from a re-analysis of the deposited data

How the results depend on the processing

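Of 576 repeats of single-gene results under other settings, 503 kept their direction and side of the threshold, 33 lost a call, 17 gained one and 23 turned in sign. These include the setting of 1 probe per gene, which left values unchanged for members with 1 probe. Over 1 probe stood for 11 members. Results not called in the main fit are among the repeats, and staying uncalled counts as kept. Of the members called between embryos, 1 of 4 in NT against AI and 1 of 8 in NT against IVF kept the call in all 8 alternatives. In IVF against AI embryos 5 of 12 did. Against donor cells 12 of 23 in NT, 13 of 25 in IVF and 13 of 19 in AI embryos did. The centring mattered most. On the ratios as deposited 24 members passed in NT against AI, 25 in NT against IVF and 6 in IVF against AI embryos, of all 4398 genes 1978, 1710 and 344 rose and 19, 45 and 354 fell, and the members' median difference was 0.44, 0.43 and 0.060, and 0.19, -0.27 and -0.10 in NT, IVF and AI embryos against donor cells. With Cy5-labelled samples alone 9 members passed in NT against AI and 5 in NT against IVF embryos. Of 4437 genes 236 rose and 314 fell in the first of these comparisons, and 458 rose and 312 fell in the second. With the NT embryos labelled 3_ alone 5 members passed in NT against IVF embryos, where 446 of 4396 genes rose and 250 fell. Leaving out each embryo in turn gave 4 to 6 member calls in NT against AI, 8 to 11 in NT against IVF and 11 to 14 in IVF against AI embryos. All genes were not counted in those fits. Leaving out either donor cell sample gave 17 to 19, 17 to 18 and 14 to 17 member calls in NT, IVF and AI embryos against donor cells. Without donor cell sample 8, of 4405 genes 576, 526 and 597 rose and 445, 457 and 484 fell in these comparisons. Without sample 9, of 4410 genes 589, 516 and 599 rose and 435, 448 and 468 fell. The subsets hold fewer samples, and the cause of these changes was not tested.

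Signs turned in these cases, and the cause was not tested. As deposited, in NT against AI embryos, DYNLRB1 was at 0.0465, MYL6 at 0.195, CFL1 at 0.402 and DYNLL1 at 0.164. As deposited, in NT against IVF embryos, MYL12A was at 0.0580 and CFL1 at 0.342. DYNLL1 was at 0.161 in NT and -0.00268 in AI embryos against donor cells as deposited, and at 0.0293 in NT embryos with quantile normalisation. CFL1 in NT against AI embryos was at 0.0177 with quantile normalisation, 0.0214 with scaling to a common deviation and 0.0651 with Cy5 alone. With Cy5 alone CAPZB was at -0.273 in NT against AI and DYNLL1 at -0.0308 in NT against IVF embryos, MYL6 at -0.447 in NT and -0.00218 in AI embryos, and DYNLL1 at -0.170 in AI embryos, against donor cells. With Cy3 alone MYL6 was at 0.00798 in NT against AI, CFL1 at -0.0463 and CAPZB at 0.129 in IVF against AI embryos, DYNLL1 at 0.497 in NT and 0.363 in IVF embryos and MYL6 at 0.288 in IVF embryos, against donor cells.

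AI and IVF embryos share 7 numbers. Same-numbered embryos deviated together with r from -0.0597 to 0.086, with 0 of 7 over 0.1, and 1 of 7 correlated best with its own number. A fit of IVF against AI with the number as replicate block, over those embryos, called 2 of 56 members. Of 4415 genes 220 rose and 238 fell in that fit. The same embryos without the block gave 4 members, where 314 of the 4415 genes rose and 376 fell. The fit without the block was added after seeing the data. So were the fits that left out each embryo and one that took a value from either dye.

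The number of arrays limits the precision, above all with 2 donor cell samples. Ratios carry no signal level, so dim probes were not set apart, and 2 orientations of a donor cell sample correlated at 0.301 to 0.354 over all probes, against 0.565 to 0.743 for embryos.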
